A study of Rattus norvegicus with 12 samples.

Results

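Interferon-stimulated genes, 9 in number, were followed in the cerebral cortex of young and aged rats: the transcription factors Irf1, Irf7 and Stat2, and the antiviral effectors Mx1, Mx2, Ifit2, Ifit3, Isg15 and Oas1a. Members were all probe sets of the array whose platform gene symbol is one of these 9 names, which gave 12 probe sets of 31099, and 9 genes of the 14218 that have a probe set with 1 symbol. Ifit2, Mx2 and Stat2 each had 2 probe sets and the other 6 genes 1. The rats were male Fischer 344 animals, an inbred strain, 6 young (labelled 3 to 5 months old) and 6 aged (labelled 21 to 23 months old), and the question addressed is how cortical gene expression differs with age. All rats of both groups had carried an implanted EEG and EMG transmitter, had been trained in the Morris water maze and were killed after its last trial, so untouched animals were not compared. RNA from 1 dissected piece of cortex per rat was hybridised to 1 Affymetrix RAE230 2.0 array. The labels are divided on the region: titles give parietal cortex, and the tissue entry gives frontal cortex.

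Interferons are secreted proteins that cells release when they sense viral nucleic acid, and they bind receptors whose JAK kinases pass the signal on by phosphorylation. A complex that holds STAT2 and IRF9 then enters the nucleus and binds the interferon-stimulated response element (ISRE), while the response to interferon gamma runs largely through the gamma-activated site (GAS). The genes so induced interfere with viral replication, and in brain tissue microglia, astrocytes, endothelial cells and neurons can all express them. Stat2 is part of the ISRE-binding complex, Irf7 amplifies type I interferon production, and Irf1 is a GAS-driven transcription factor. Of the effectors, Mx1 and Mx2 are dynamin-like GTPases, Ifit2 and Ifit3 are tetratricopeptide-repeat proteins that act on foreign RNA and translation, Isg15 is a ubiquitin-like modifier, and Oas1a is a 2′-5′-oligoadenylate synthetase that is activated by double-stranded RNA.

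The promoters show which of the members carry the letters that these factors read. RefSeq promoter sequences of build GRCr8, from 250 bases before to 50 bases after the transcription start, matched 6 of the 9 members. For 5 of them the sequence is printed 5′ to 3′ in the direction of transcription, with an ISRE core (2 GAAA tetramers with 2 bases between, on either strand) or a GAS core (TTCNNNGAA, the same on both strands) in capitals. They lie at chr12:41330216-41330515 on the plus strand for Oas1a, chr1:241527076-241527375 on the plus strand for Ifit3, chr1:205799974-205800273 on the minus strand for Irf7, chr10:38417685-38417984 on the plus strand for Irf1 and chr11:50294557-50294856 on the minus strand for Mx1.
Oas1a: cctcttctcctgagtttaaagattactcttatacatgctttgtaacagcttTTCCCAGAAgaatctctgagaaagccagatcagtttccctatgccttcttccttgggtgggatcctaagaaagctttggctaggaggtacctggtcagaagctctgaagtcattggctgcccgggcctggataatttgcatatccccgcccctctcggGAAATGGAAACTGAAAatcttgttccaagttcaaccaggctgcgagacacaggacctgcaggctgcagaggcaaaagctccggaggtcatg
Ifit3: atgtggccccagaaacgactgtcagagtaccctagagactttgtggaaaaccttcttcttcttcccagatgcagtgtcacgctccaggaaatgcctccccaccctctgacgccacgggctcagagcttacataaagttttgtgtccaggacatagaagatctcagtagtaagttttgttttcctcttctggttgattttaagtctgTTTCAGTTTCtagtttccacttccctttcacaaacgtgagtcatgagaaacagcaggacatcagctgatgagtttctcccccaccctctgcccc
Irf7: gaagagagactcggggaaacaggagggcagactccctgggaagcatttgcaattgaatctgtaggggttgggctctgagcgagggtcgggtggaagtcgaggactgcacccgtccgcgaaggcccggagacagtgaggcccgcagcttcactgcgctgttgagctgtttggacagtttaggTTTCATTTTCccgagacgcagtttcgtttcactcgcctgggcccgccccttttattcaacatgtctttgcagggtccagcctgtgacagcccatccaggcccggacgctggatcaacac
Irf1: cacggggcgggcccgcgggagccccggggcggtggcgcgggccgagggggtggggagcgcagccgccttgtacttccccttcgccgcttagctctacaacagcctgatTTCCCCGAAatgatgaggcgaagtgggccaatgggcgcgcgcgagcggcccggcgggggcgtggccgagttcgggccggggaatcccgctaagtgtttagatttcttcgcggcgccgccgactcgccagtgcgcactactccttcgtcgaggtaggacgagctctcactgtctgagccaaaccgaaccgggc
Mx1: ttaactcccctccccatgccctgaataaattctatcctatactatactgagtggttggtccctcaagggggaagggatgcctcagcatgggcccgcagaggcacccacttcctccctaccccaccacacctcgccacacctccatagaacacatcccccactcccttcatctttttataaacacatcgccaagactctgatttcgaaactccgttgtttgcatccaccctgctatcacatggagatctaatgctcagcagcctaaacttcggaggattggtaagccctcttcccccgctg
Oas1a held 2 overlapping ISRE cores, with first bases 41 and 35 bases before the start, and a GAS core at 199 bases before it. Ifit3 held an ISRE core at 44 bases and Irf7 one at 69 bases before the start. Irf1 held a GAS core at 142 bases before the start. Mx1 is shown because neither set of letters was found in its window, and the same was true of Stat2. A match is a run of letters in this window and not a measured binding site. An ISRE core was thus found in 3 of 6 member promoters (50%), in 25 of 60 promoters of other interferon pathway genes (41.7%) and in 1312 of all 33469 promoters (3.92%). A GAS core was found in 2 of 6 (33.3%), 15 of 60 (25%) and 2970 of 33469 (8.87%). In the same annotation Ifit2 and Ifit3 are neighbours on chromosome 1 with 0 protein-coding genes between them, and Mx1 and Mx2 lie on chromosome 11 with 1 between.

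Signals are linear intensities as deposited, with a trimmed mean of 500.1 on each array, and tests were run on their log2. The probe sets that represent the 9 genes were over the cutoff used here, a signal of 19.7, on all 12 arrays. Between 83.3% and 87.1% of all probe sets were over it on each array, and each array correlated with the mean of the others at r between 0.9659 and 0.9774. The cutoff was taken from the methods, whose scale may differ, so a signal over it does not by itself show detection. Mx1 (31.4 to 143), Ifit3 (38.1 to 111) and Oas1a (33.7 to 97.5) stayed below the median signal of every array (161.6 to 194.3). Of 8 cortical neuron markers listed 7 were on the array, and all 7 were over the cutoff on every array. Fewer cells of a type and less RNA per cell cannot be told apart in such tissue. The p-values measure the spread between these rats, 1 sample each.

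For none of the 9 genes was the difference between aged and young cortex larger, by the test, than the spread between rats. By limma with Benjamini-Hochberg adjustment over 13254 genes, 0 of 9 passed an adjusted p of 0.05, where 7 genes, or 0.0528% of those tested, did. At an unadjusted p of up to 0.05 the count was also 0 of 9, against 6.47% of all genes higher and 2.62% lower in aged rats. That split over all genes, 858 higher and 347 lower, was 587 and 467 after quantile normalization and turned to 412 and 884 after median centring of each array. The methods' t-test on the same values also gave 0 members at its threshold of 0.01. The differences were positive for 5 members and negative for 4, from -0.51 to 0.29 on the log2 scale. Their median was 0.03, beside 0.024 over all genes tested, and its sign was not stable, at -0.09 after quantile normalization, -0.04 after median centring and -0.094 without aged rat 6. No member had groups that did not overlap, and 0.777% of all genes had.

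Among the transcription factors, Irf1 ranged from 158 through a median of 207 to 235 in young rats and from 166 through 216 to 336 in aged rats. Aged rats 2 and 6, at 282 and 336, lay above all young rats, and the other 4 lay within the young range. The log2 fold change (aged minus young) was 0.17 ± 0.17 (SE), with a 95% confidence interval of -0.20 to 0.54 and a limma adjusted p of 0.808. Irf7, whose protein drives interferon alpha genes, had 108, 150 and 184 as its lowest, median and highest signal in young rats and 121, 141 and 185 in aged rats. These ranges were nearly the same, and the log2 fold change was -0.022 ± 0.13 (interval -0.31 to 0.26, adjusted p 0.975).

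Stat2, which joins IRF9 in the ISRE-binding complex, had the smallest SE of the 9 genes. Its signal ran from 323 through 343 to 382 in young rats and from 318 through 349 to 415 in aged rats. All aged rats but 1 above and 1 below lay within the young range, and the log2 fold change was 0.04 ± 0.073 (interval -0.12 to 0.20, adjusted p 0.913). The other Stat2 probe set gave 186 to 316 in young and 173 to 364 in aged rats, with a log2 fold change of 0.077 ± 0.18.

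**Figure D1:**
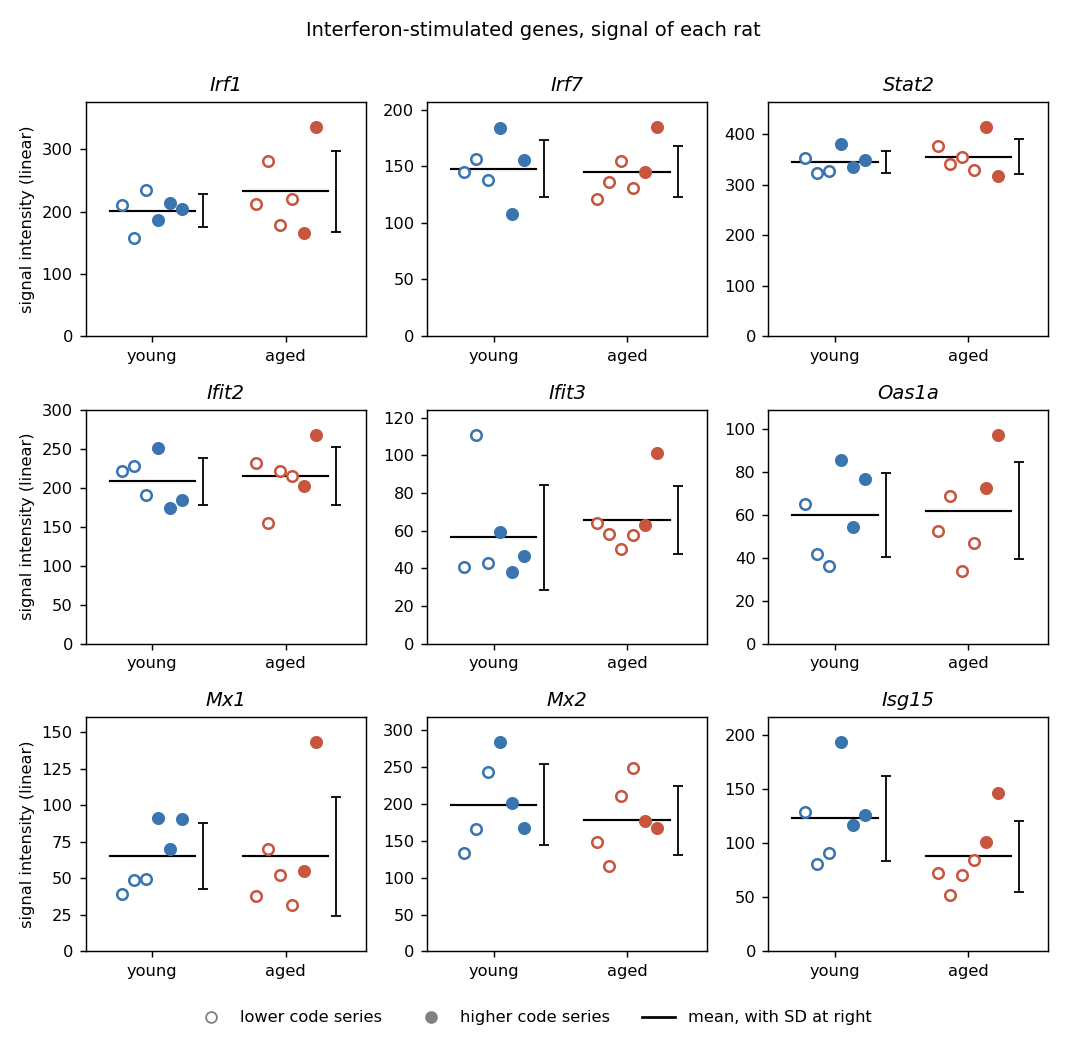
Signal intensity (linear) of the 9 genes in each rat, young on the left and aged on the right, with a panel per gene and its own axis from 0. Points are rats, open for the lower and filled for the higher series of sample codes, lines are group means of 6 rats and bars beside them are SD; the groups overlap in every panel, and aged rat 6 is the highest aged rat in 7 of them.

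Isg15, the ubiquitin-like modifier, had the largest difference of the 9, and it did not pass the test. Young rats ranged from 80.6 through 121 to 193, with a mean of 123 ± 39.7 (SD, n = 6). Aged rats ranged from 52.1 through 78.1 to 146, with a mean of 87.4 ± 32.8 (SD, n = 6). Aged rats 1, 2 and 3 were below every young rat, and 1 aged rat, number 6, was above the young median. The aged signal was 0.704-fold of the young, a log2 fold change of -0.51 ± 0.26 (interval -1.07 to 0.057), with a limma adjusted p of 0.584. The exact permutation test over the 12 arrays, two-sided, gave p = 0.0974 without adjustment. Leaving out 1 rat at a time moved the value between -0.67 and -0.36. The first was without aged rat 6, with an unadjusted limma p of 0.0144 and an adjusted p of 0.506. The second was without young rat 4, with an unadjusted limma p of 0.162 and an adjusted p of 0.734.

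The IFIT pair, which lies side by side in the genome, did not pass the test either. Ifit3 ranged from 38.1 through 44.5 to 111 in young rats and from 50 through 60.7 to 101 in aged rats. All 6 aged rats were above the young median, yet young rat 2, at 111, was the highest of all 12. The log2 fold change was 0.29 ± 0.26 (interval -0.27 to 0.85, adjusted p 0.773), and without young rat 2 it was 0.51, with an unadjusted limma p of 0.0143 and an adjusted p of 0.517. Without aged rat 6 it was 0.16, with an unadjusted limma p of 0.526. Ifit2 on the probe set with the higher mean ranged from 174 through 206 to 251 in young and from 155 through 218 to 268 in aged rats. These groups overlapped almost wholly, with a log2 fold change of 0.045 ± 0.13 (interval -0.24 to 0.33, adjusted p 0.954).

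Ifit2 and Mx2 also have a dimmer probe set each. That of Ifit2 ranged from 91.6 through 126 to 154 in young and from 134 through 151 to 164 in aged rats, with all aged rats above the young median. Its log2 fold change was 0.28 ± 0.12, with an unadjusted p of 0.0419 and an adjusted p of 0.619 in the limma fit over 28193 probe sets. Mx2 on its brighter probe set, at 134 through 185 to 284 in young and 116 through 172 to 249 in aged rats, had a log2 fold change of -0.16 ± 0.21 (interval -0.62 to 0.31, adjusted p 0.876). On the dimmer Mx2 probe set young rats ranged from 9.52 through 14.9 to 23.2 and aged rats from 19.5 through 21.2 to 26.3. That probe set was over the cutoff of 19.7 in 1 young and 5 aged rats, so it entered the fit mainly through the aged rats. Its fitted log2 value of 0.55 (adjusted p 0.482) stands against a young group mostly under the cutoff and is no measured fold. In the fit over probe sets 5.67% passed an unadjusted p of 0.05 toward higher signal in aged rats. Over the 12 rats, with the age means removed, the log2 values of a gene's probe sets correlated at r = 0.58 for Ifit2 (rho 0.73), 0.11 for Mx2 (rho 0.014) and -0.18 for Stat2 (rho -0.021). Their permutation p-values, adjusted over the 3 genes, were 0.0866, 0.759 and 0.759 for r and 0.0573, 0.975 and 0.975 for rho. Without the rats farthest from the median, r was 0.87 for Ifit2, -0.30 for Mx2 and 0.037 for Stat2.

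Mx1 and Oas1a, a GTPase and an RNA-activated synthetase, varied widely within each age. Mx1 ranged from 39.3 through 60 to 91.3 in young and from 31.4 through 53.7 to 143 in aged rats. Aged rat 6 alone was above the young range, aged rats 1 and 4 were below it, and the log2 fold change was -0.12 ± 0.35 (interval -0.89 to 0.65, adjusted p 0.955). Oas1a ranged from 36.3 through 59.8 to 85.8 in young and from 33.7 through 60.7 to 97.5 in aged rats. Its medians were alike, and the log2 fold change was 0.03 ± 0.28 (interval -0.58 to 0.64, adjusted p 0.985). With 6 arrays a group, differences within these intervals were not excluded.

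**Figure D2:**
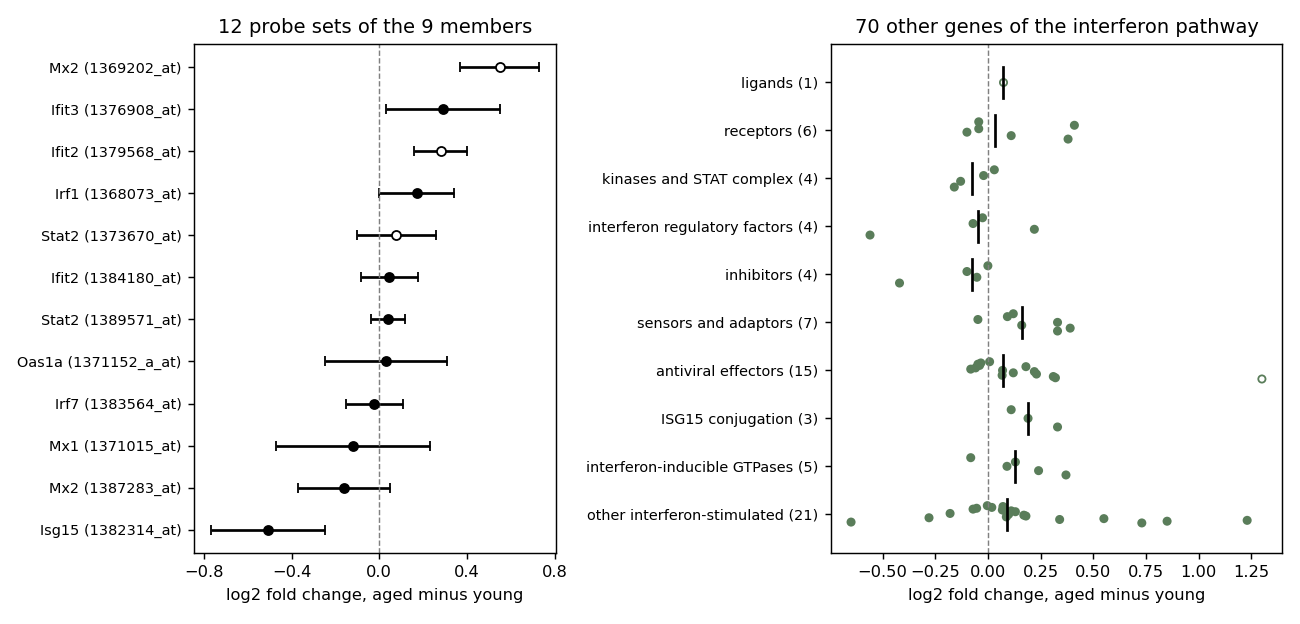
Log2 fold change of aged against young cortex (horizontal axes). Left, the 12 probe sets of the 9 genes with their SE, filled where the probe set represents its gene, from -0.51 for Isg15 to 0.55 for the dimmer Mx2 probe set, which was over the cutoff in 1 young rat; right, 70 other interferon pathway genes by role, 1 point each (open for Oas1b and Ifnk, which were under the cutoff in every young rat, so that their position is no measured fold), with the number of genes in brackets and a line at the median of each role.

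The rest of the interferon pathway was set beside the members from a list of 102 genes, of which 73 were on the array and 70 passed the filter. None of the 70 passed the adjusted threshold by limma, the smallest adjusted p was 0.412, and 0 of 70 had groups that did not overlap, where 0.777% of all genes had. At an unadjusted p of up to 0.05, 5 were higher and 1 was lower in aged rats, near the 6.47% and 2.62% of all genes. Of the 70 values 44 were positive and 26 negative, where 7542 of all 13254 genes were positive and 5712 negative. The median of the 70 was 0.088, beside 0.024 over all genes. This median was 0.015 without aged rat 6, 0.017 after median centring and -0.009 after quantile normalization, and it was -0.013 in the lower and 0.24 in the higher series of sample codes alone. Receptors had a median of 0.032 (6 genes), kinases and STAT complex genes -0.075 (4), the other interferon regulatory factors -0.048 (4) and inhibitors -0.078 (4). Sensors and adaptors had a median of 0.16 (7 genes), the other antiviral effectors 0.069 (15), the enzymes of ISG15 conjugation 0.19 (3), interferon-inducible GTPases 0.13 (5) and the remaining stimulated genes 0.088 (21). The 1 ligand tested, Ifnk, was under the cutoff in every young rat.

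The 8 pathway genes with the smallest p came from several roles. Cxcl10, a chemokine that draws T cells, ranged from 15.2 to 31.4 in young and from 22.3 to 53.1 in aged rats, with means of 22 ± 6.05 and 37.4 ± 12.9 (SD, n = 6 each). Its log2 fold change was 0.73 ± 0.25 (adjusted p 0.412). Ccl5, another T cell chemokine, had 0.85 ± 0.43 (adjusted p 0.584). Il10rb, a receptor chain shared by interleukin 10 and interferon lambda, had 0.38 ± 0.15 (adjusted p 0.487). Among the effectors, Ifit1, which binds the 5′ end of foreign RNA, had 0.32 ± 0.14 (adjusted p 0.532).

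Oas1b, a paralog of Oas1a, is 1 of the 5 pathway genes counted as higher, and it passed the filter through aged rats alone. Its young signals of 3.49 to 13.7 were all under the cutoff and its aged signals ran from 4.06 to 35.6, so no fold is given. Ube2l6, the enzyme that hands ISG15 on to its targets, had 0.33 ± 0.14 (adjusted p 0.523), where Isg15 itself had -0.51. On the lower side stood Ifi27l2b, at -0.65 ± 0.28 (adjusted p 0.526) with 4 aged rats below every young rat, and the kinase Jak2, at -0.16 ± 0.08 (adjusted p 0.574).

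A pair of rats stood above the others in most members. Young rat 4 was above its age mean in 8 of 9 members and had the highest young signal in 7 of the 9 genes. Aged rat 6 was above its age mean in 7 of 9 and had the highest aged signal in 7. The mean z score of the 9 members was 1.03 in young rat 4 and 1.15 in aged rat 6, and between -0.46 and 0.16 in the other 10 rats. The array of aged rat 6 also had the highest median signal, 194.3 against 161.6 to 177.2 on the other 11. After median centring of each array, an alternative chosen after the values were seen, aged rat 6 was still above its age mean in 7 of 9 members with a mean z score of 0.75, and young rat 4 in 8 with 1.21. Both rats also had the highest summed signal of the 10 microglia markers (Cx3cr1, P2ry12 and Trem2 among them, all over the cutoff on every array) within their age. That sum was 10580 in aged rat 6, where the other aged rats had 5579 to 6762. In young rat 4 it was 6502, where the other young rats had 4979 to 5937. The sum of the 7 blood cell markers on the array was 6555 in aged rat 6, below the 6705 to 10016 of the other aged rats, and 9549 in young rat 4, above the 5190 to 7300 of the other young rats. The 6 endothelium markers summed to 5388 in aged rat 6 against 3585 to 4267, and to 3651 in young rat 4 within the 3187 to 4099 of the others. Astrocyte markers were highest within their age in both rats too. The 5 markers summed to 41677 in aged rat 6 (32494 to 37749 in the other aged rats). In young rat 4 they summed to 39699 (31117 to 35921 in the other young rats). Young rat 4 was also the highest young rat for the summed markers of cortical neurons, at 46141, oligodendrocytes, at 22183, and meninges, at 1227. Aged rat 6 did not follow, with a neuron sum of 36897, below the 37368 to 41886 of the other aged rats. Its oligodendrocyte sum, 20989, and meninges sum, 717, lay within those of the other aged rats. For choroid plexus, young rat 4 had 203, below the 248 to 1530 of the other young rats. The marker sums are of signals as deposited, without median centring. The part of these cells in the members' values was not tested.

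**Figure D3:**
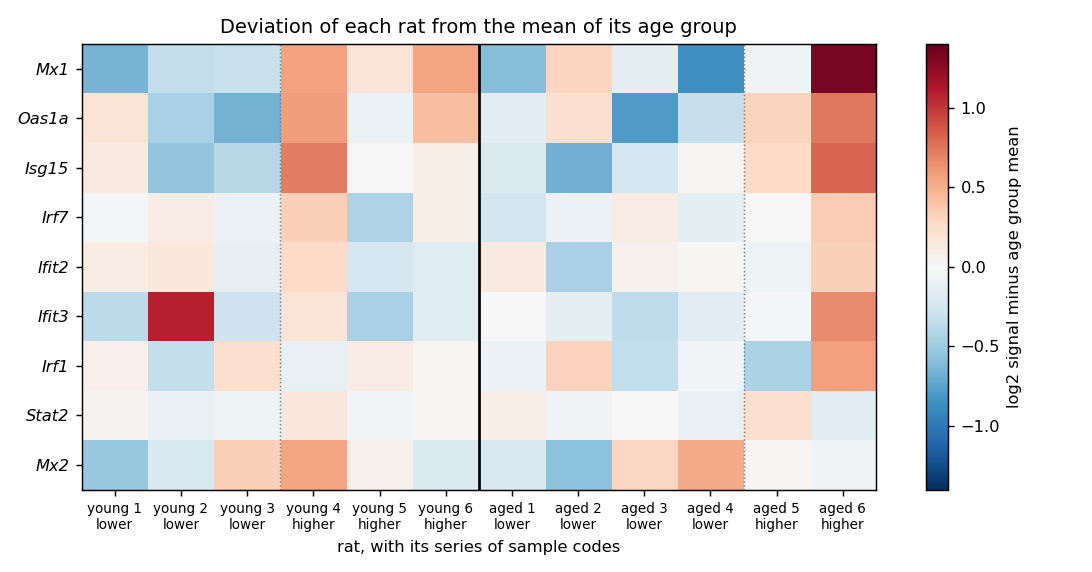
Log2 signal of each rat minus the mean of its age group (colour, red above and blue below) for the 9 genes (vertical axis) in the 12 rats (horizontal axis), with the series of sample codes under each name. Young rat 4 is above its age mean in 8 genes and aged rat 6 in 7, and Mx1, Oas1a and Isg15 are mostly above it in the rats of the higher code series.

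The sample codes of the labels fall into a lower and a higher series, a split whose meaning the labels do not give. The lower series holds 7 arrays (young rats 1 to 3 and aged rats 1 to 4) and the higher 5 (young rats 4 to 6 and aged rats 5 and 6), and the comparison of members between them was chosen after the values were seen. Mx1, Isg15 and Oas1a had higher signals in the higher series within both ages, though 0 genes of 13254 passed the adjusted threshold and 904 of them, or 6.82%, were higher at an unadjusted p of up to 0.05. The members at that unadjusted p were these 3 of 9, all in the higher direction.

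For Mx1, the 3 young rats of the lower series had 39.3 to 49.8 and those of the higher series 70.3 to 91.3. The aged rats of the lower and higher series had 31.4 to 69.9 and 55.2 to 143. With age in the model the log2 difference (higher minus lower series) was 0.91 ± 0.25 (SE), with an adjusted p of 0.291 and an unadjusted p of 0.00444. Isg15 ran from 52.1 to 84.2 and from 101 to 146 in aged rats of the lower and higher series. In young rats it ran from 80.6 to 129 and from 117 to 193. Its log2 difference between the series was 0.67 ± 0.19 (adjusted p 0.291). Oas1a ran from 33.7 to 68.8 and from 72.6 to 97.5 in aged rats, and from 36.3 to 65.3 and from 54.4 to 85.8 in young rats. The difference was 0.70 ± 0.21 (adjusted p 0.302). How many of all genes have ranges that lie apart in groups this small was not counted.

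The other 6 members had series differences of 0.046 to 0.14 on the log2 scale. Without aged rat 6 the values of Mx1, Isg15 and Oas1a were 0.66, 0.54 and 0.60, with adjusted p-values of 0.646, 0.646 and 0.647. No member had an interaction of age and series past an unadjusted p of 0.05, and the smallest was 0.176. In the other pathway genes 13 of 70 were higher and 4 lower in the higher series at an unadjusted p of up to 0.05, beside 6.82% and 5.25% of all genes. Those with the smallest p, named after their values were seen, were Ifnar1, a receptor chain for type I interferon, at -0.32 ± 0.09, and the membrane restriction factor Ifitm3, at 0.30 ± 0.086. With the series as a block the age difference was 0.032 for Mx1, -0.39 for Isg15 and 0.15 for Oas1a.

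Pairs of members correlated weakly over the 12 rats once the age means were removed. Of 36 pairs 27 had a positive r, the median was 0.19 and the range -0.59 to 0.70, and 0 passed a Benjamini-Hochberg adjustment (3 had a permutation p under 0.05). Those 3 pairs were Isg15 with Oas1a, at r = 0.70 (permutation p 0.0176, adjusted 0.383), Mx1 with Oas1a, at 0.68 (0.024, adjusted 0.383), and Irf7 with Ifit2, at 0.61 (0.0428, adjusted 0.383). Spearman's rho for these was 0.73, 0.71 and 0.61, with adjusted permutation p-values of 0.336, 0.336 and 0.435. Without the 2 rats farthest from the median r was 0.44, 0.55 and 0.37. With the code series removed as well it was 0.36, 0.31 and 0.61. Without aged rat 6, 21 of the 36 pairs were positive, with a median of 0.17.

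**Figure D4:**
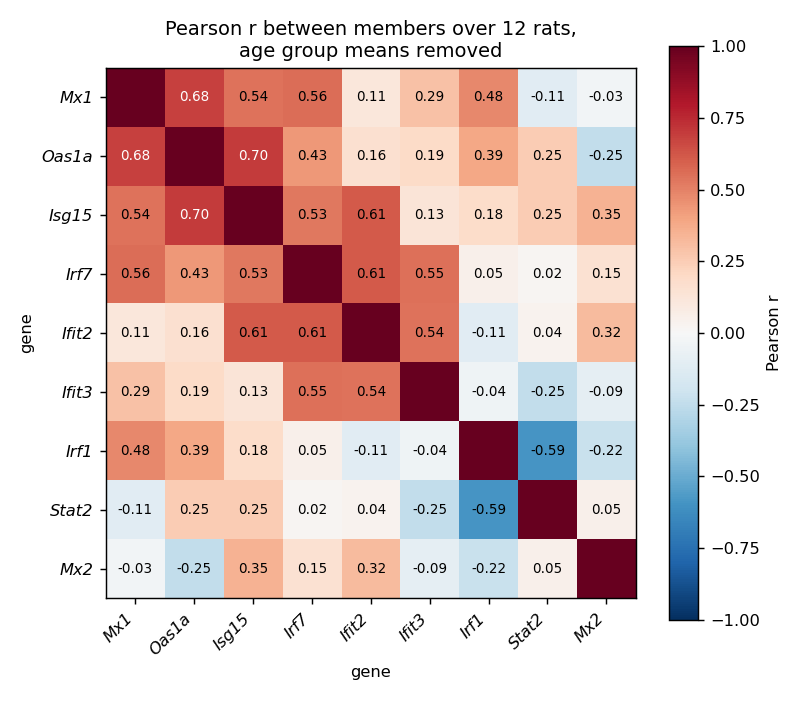
Pearson r of log2 signal between each pair of the 9 genes over 12 rats after the age group means were removed (both axes list the genes, colour and number give r). Mx1, Oas1a, Isg15, Irf7, Ifit2 and Ifit3, named after the values were seen, have positive values with each other, from 0.11 to 0.70. Without aged rat 6 some of these pairs are negative, down to -0.32 for Mx1 with Ifit2. Irf1 with Stat2 has the lowest value, -0.59, and no pair passed the adjustment.

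Likeness to the members was measured as the Pearson r over the 12 rats, age means removed, with the mean z score of the 9 genes. The 8 most alike of 13245 other genes were LOC102554082 (r = 0.96), Metrn (0.94), Fcgr3a (0.94), Serpinb1a (0.93), Gpr83 (0.91), Cxcl13 (0.91), Ifgga2l1 (0.90) and Fxyd1 (0.90), none of them on the pathway list. That list does not hold every interferon-stimulated gene, so a gene off it, such as Ifgga2l1, may still be one. Fcgr3a encodes an Fc gamma receptor of myeloid cells and Cxcl13 a B cell chemokine. Without aged rat 6 these values were between 0.82 and 0.95. The score has 2 rats far from the rest, young rat 4 and aged rat 6, which all such r share. None of the 8 passed the test of age, with limma adjusted p-values of 0.587 to 0.978.

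The other pathway genes had a median r of 0.29 with that score, 55 of 70 positive. Over all genes but the members the median was 0.048, with 7212 of 13245 positive. The pathway genes named here were picked after their values were seen. The highest were Rsad2 (r = 0.89), which encodes viperin, Ifitm1 (0.86) and the GTPase Igtp (0.85), and Gbp7 and Ifitm2 followed at 0.84 and 0.83. The lowest was the receptor chain Ifnar1, at -0.84.

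**Figure D5:**
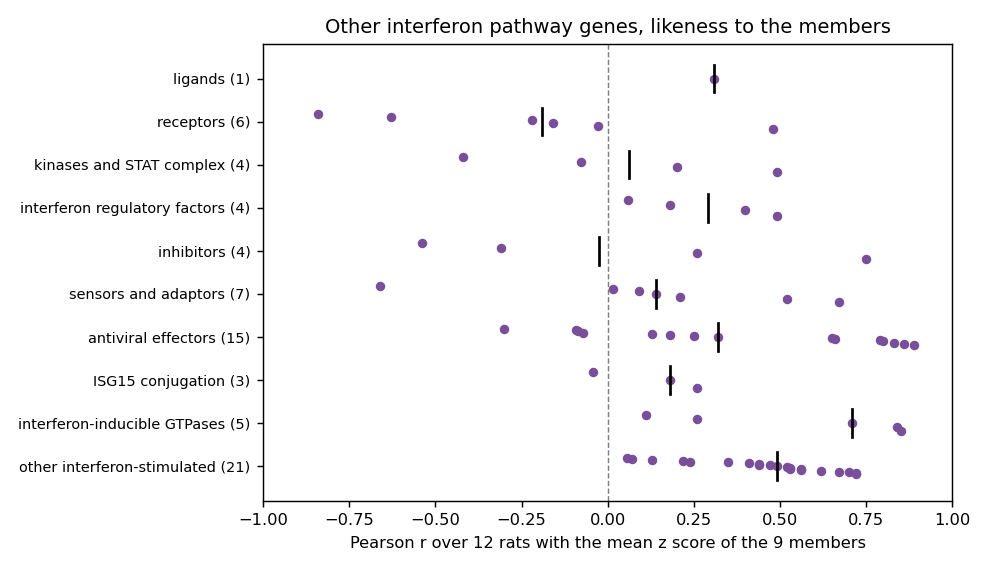
Pearson r over 12 rats, age means removed, between each of 70 other interferon pathway genes (1 point each, by role, number of genes in brackets) and the mean z score of the 9 members, with a line at the median of each role. The roles overlap: antiviral effectors run from -0.30 to 0.89, GTPases from 0.11 to 0.85, and receptors from -0.84 (Ifnar1) to 0.48 (Ifnar2).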

How the data were processed

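The 9 members, the pathway list and the marker lists were chosen with earlier results of these data known. Cortex RNA of 6 young and 6 aged rats was measured on 1 Affymetrix array each. The authors deposited a linear signal intensity per probe set. In the submitters' processing notes stand GCRMA, MAS5 and R 2.7.1. The methods describe gcRMA and an Affymetrix target intensity, and how these steps were combined is not given in the sources used here. Background correction and scaling of this kind can move dim probe sets most. The design of the tests had allowed for linear or log2 values, so log2 was taken here, with no further normalization. Of 31099 probe sets 20832 had 1 gene symbol, 436 several and 9831 none, and 20764 of the gene IDs were found in the RefSeq table. Where a gene had several probe sets, the one with the highest mean stood for it, and genes over a log2 cutoff of 4.3 on at least 3 arrays were tested. The cutoff is that of the methods, whose gcRMA scale may differ from the deposited one, and the annotation grade named there was not used.

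Aged and young rats were compared with R 4.3.3 and limma 3.58.1 (eBayes after lmFit). The test was two-sided, p-values were adjusted by the method of Benjamini and Hochberg over 13254 genes, and the fit was tested on simulated data. Single members also had an exact permutation test over the arrays, and correlations 100000 permutations within age groups. The number of arrays limits the precision. Named were all members, the 8 pathway genes with the smallest p and the 8 genes most alike. Promoters came from RefSeq build GRCr8. Python 3.11.15 and matplotlib 3.10.9 drew the figures. Alternatives covered normalization, filter, choice of probe set, variance model, array weights, the methods' t-test, blocks and left-out rats.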

Additional observations from a re-analysis of the deposited data

Results flagged for a closer look

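Ifit3 was singled out by 1 sample far from the others. In aged rat 6 its signal was 101, where the other 5 aged rats lay between 50 and 64.1, and the gap to the nearest of them was 0.644 of the whole aged range, above the 95% critical value of Dixon's test for 6 samples. Of 24 groups examined (12 probe sets in 2 age groups) this was the only one past it, and chance flags about 1 in 20. Without aged rat 6 the log2 fold change of Ifit3 was 0.16.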

How the results depend on the processing

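No alternative of any member reached an adjusted p of 0.05 (count 0). At an unadjusted p of up to 0.05, 1 member was lower (Isg15) after quantile normalization, median centring, the replicate block and without aged rats 2 and 6, and 1 was higher (Ifit3) in the higher code series alone. Leaving out 1 rat at a time gave 0 to 1 members in each direction (Isg15 lower without young rat 2 or aged rat 6, Ifit3 higher without young rat 2). The pathway list median, 0.088, was 0.24 in the higher series alone, -0.013 in the lower, -0.009 after quantile normalization and 0.015 to 0.10 with 1 rat left out. Signs turned for Ifit2 (-0.0037) and Oas1a (-0.11) after quantile normalization, and for Stat2 (-0.03), Ifit2 (-0.026) and Oas1a (-0.04) after median centring. They also turned for Oas1a (-0.051) with array weights and for Mx1 (0.032) with the code series as a block. In the lower series alone they turned for Ifit2 (-0.061) and Ifit3 (-0.01). In the higher series alone they turned for Irf7 (0.17), Mx1 (0.09) and Ifi27l2b (0.068). Without aged rats 2 and 6 they turned for Irf1 (-0.052) and Oas1a (-0.21). The dimmer Mx2 probe set, at 0.55, was mostly under the cutoff in young rats, so it gives no sign to compare. Leaving out 1 rat moved Irf7 from -0.11 to 0.045, Stat2 from -0.0052 to 0.072, Mx1 from -0.39 to 0.052, Ifit2 from -0.022 to 0.14 and Oas1a from -0.12 to 0.19. Beyond fewer samples in the subsets, the cause was not tested. The members' median, 0.03, was -0.09 after quantile normalization, -0.04 after median centring (all genes -0.047), -0.029 with array weights, -0.01 in the lower series alone, -0.052 without aged rats 2 and 6, and -0.094 to 0.069 with 1 rat left out. Young and aged rats are linked in the labels only by a subject number. Rats of the same number were also of the same code series for numbers 1, 2, 3, 5 and 6, but not for 4. The replicate block and the code series therefore cannot be fully told apart. The correlation of same-numbered rats' deviations ran from -0.0389 to 0.16, and 4 of 6 numbers matched best. The replicate block took the genes past the adjusted threshold from 7 to 2.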
